A study of Oryza sativa with 26 samples.

Results

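The mature lamina joints of rice were compared by leaf position, with 6 arrays at stage 4 out of 26 in the whole series. They were selected by their labelled stage alone, and every labelled array of that stage apart from the leaf control was used. The groups were the joint of the last leaf 65 days after sowing, the joint of the leaf below it, called the second, at 60 days and the joint of the next leaf down, called the third, at 55 days, with 2 arrays each. All plants were Oryza sativa, japonica cultivar Zhonghua 11, grown in a greenhouse without any treatment, and the joints were dissected by hand. Per the labels, joints at this stage were mature and white and the leaf still stood at an angle of 0. The other arrays came from the same 3 joints at stages 2, 5 and 6 and from a green piece of the third leaf at stage 4, and they served here to estimate the variance and as points of comparison. Because each position was taken on its own day, leaf position and day after sowing cannot be told apart at stage 4. The labels call the 2 arrays of a group biological replicates without saying that they came from separate plants, so every p-value here reflects the spread between these samples alone.

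The lamina joint connects the leaf blade to its sheath, and unequal elongation of its upper and lower cells bends the blade away from the stem. Brassinosteroids and auxin are known to control that bending, and gravity sensing contributes to it. The last leaf, also called the flag leaf, is the final one formed before the shoot apex turns to making the panicle, so the 3 positions come from different points in the plant's passage to flowering. The comparisons ask which transcripts distinguish joints of the same developmental stage on successive leaves.

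Levels are given as log2 expression of a probe set, and their precision is limited by the 2 arrays a group. The medians of the 6 arrays lay between 5.10 and 5.15. A level near or below these medians is not shown to be above background, so the size of a difference from such a level depends on the floor of the array. Replicates differed by a root-mean-square of 0.46 on the log2 scale in the last joint, 0.25 in the second and 0.49 in the third, while arrays of different positions differed by 0.44 to 0.58. One array stood apart. For the Gapdh control, whose 3′ signal exceeds its 5′ signal where RNA is degraded, the 3′ minus 5′ difference was 3.78 in replicate 2 of the third joint and 1.81 to 2.07 on the other 5 arrays. Every comparison with the third joint rests partly on that array, and values without it are given with the counts and for the lead genes. It enters the last against the second joint only through the variance shared by all groups. LG1, without which rice leaves lack the ligule, auricles and joint, was at 8.41 and 9.23 in the last joint, 8.40 and 8.91 in the second and 8.93 and 8.96 in the third, against a mean of 5.93 in the leaf piece. It thus marked all 6 arrays as joint tissue and did not pass the test between positions. Other tissues that a cut piece could hold were followed by the log2 of their summed marker levels. On the 6 arrays these lay between 14.58 and 14.79 for cuticle genes of the epidermis and between 13.39 and 13.62 for meristem KNOX genes. Green leaf, panicle and secondary wall markers varied more and are given further below.

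Few transcripts passed the test between positions. Between the last and the third joint, 241 of 57258 probe sets (0.421%) passed limma's test at a Benjamini-Hochberg adjusted p under 0.05 with at least a 2-fold difference, called changed from here on; 116 (0.203%) were higher and 125 (0.218%) lower in the last joint. Between the last and the second joint 232 (0.405%) changed, 138 (0.241%) higher and 94 (0.164%) lower. Between the second and the third joint 135 (0.236%) changed, 62 (0.108%) higher and 73 (0.127%) lower. limma's F-test over the 3 positions passed 496 probe sets (0.866%) with no fold limit. Among these, the last joint had the highest mean in 211, the second in 133 and the third in 152. The 3 comparisons share their groups in pairs, so their counts are not independent of each other.

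The counts depended on single arrays. Without replicate 2 of the third joint, 47 probe sets changed between the last and the third, 34 of them among the 241. Only 4 changed between the second and the third, 3 of them among the 135. Without replicate 1 of the third joint instead, 689 and 1101 changed in these comparisons. Without replicate 1 or 2 of the second joint, 6 and 11 changed between the second and the third. Between the last and the second joint 116 and 55 probe sets changed without replicate 1 or 2 of the last joint, and 31 and 53 without replicate 1 or 2 of the second. A lone remaining array is assumed in these fits to vary like the other groups.

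**Figure D1:**
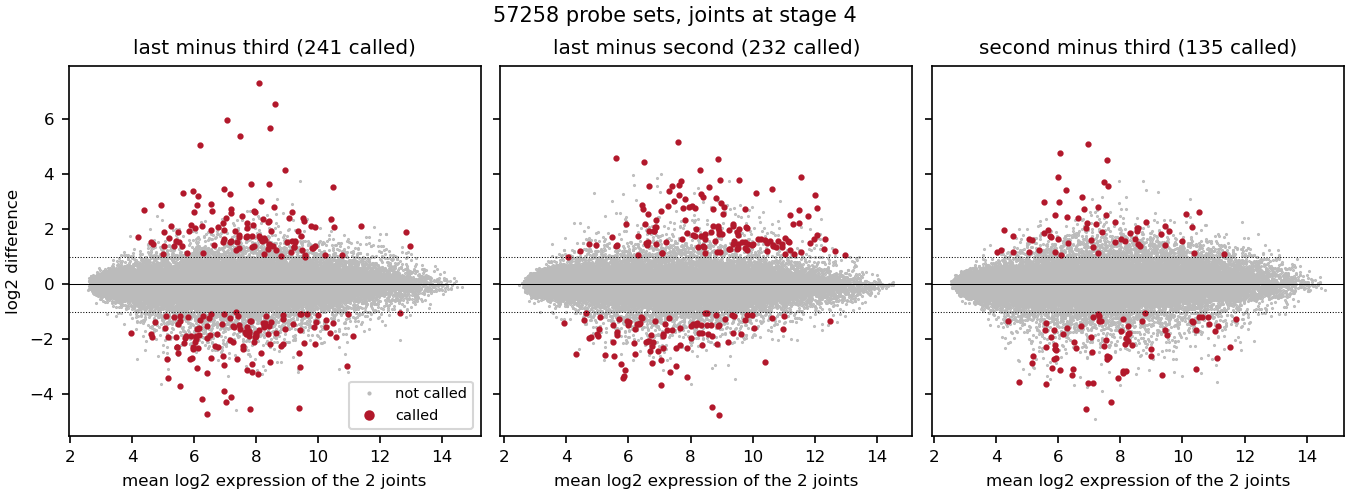
Each point is 1 of 57258 probe sets; the x axis is its mean log2 expression in the 2 joints compared and the y axis the log2 difference, with red points called and dotted lines at a 2-fold difference. The 241, 232 and 135 called probe sets are few beside the grey cloud, and the highest point of the last minus the third joint is MADS34 at 7.32, where the level of the third joint is too low to fix the size.

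Among the flowering MADS genes, MADS34, MADS15 and MADS14 were higher in the last joint than in the third, and MADS34 and MADS15 were also higher in the second than in the third. None of them passed between the last and the second joint. MADS34 (LOC4334141), a SEPALLATA-like factor of inflorescence and spikelet identity, had log2 levels of 11.42 and 12.05 in the last joint, 9.55 and 9.50 in the second and 4.57 and 4.26 in the third. The groups did not overlap. The third joint lay below the array medians and near the leaf piece, which averaged 4.02, so its level is not shown to be above background. The difference between the last and the third was 7.32 ± 0.64 on the log2 scale (SE, n = 2 each; limma adjusted p = 7.66e-05), and that between the second and the third was 5.11 ± 0.64 (adjusted p = 0.00272). Between the last and the second the difference of 2.21 ± 0.64 did not pass (adjusted p = 0.176).

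MADS15 (LOC4342214), an APETALA1/FRUITFULL-like factor that helps set meristem identity at flowering, had 11.85 and 11.93 in the last joint, 9.56 and 10.08 in the second and 6.77 and 3.85 in the third. The third joint's arrays lay far apart, but both were below every array of the other joints. The last joint exceeded the third by 6.57 ± 0.87 (adjusted p = 0.0025) and the second exceeded it by 4.51 ± 0.87 (adjusted p = 0.0378). Another 2 probe sets of MADS15 changed between the last and the third as well, by 5.69 and 5.98, while a dim one differed by 1.05 and did not pass. MADS14, its close relative, had 12.19 and 12.29 in the last joint, 11.74 and 11.87 in the second and 9.89 and 7.50 in the third. The last joint was higher than the third by 3.55 ± 0.68 (adjusted p = 0.0272). For MADS14 the second joint lay near the last, with a difference of 0.44 ± 0.68.

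Without replicate 2 of the third joint, MADS34 differed between the last and the third by 7.17 (adjusted p = 0.00236) and MADS15 by 5.11 (adjusted p = 0.0443), and both remained called. MADS14 differed by 2.35 and lost its call (adjusted p = 0.31). Between the second and the third, the differences were then 4.96 for MADS34 (adjusted p = 0.0619) and 3.05 for MADS15 (adjusted p = 0.479), neither of them called. MADS18, the third member of this MADS branch, had 11.80 and 11.42 in the last joint, 11.78 and 11.79 in the second and 12.00 and 11.27 in the third, and no comparison passed.

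Of the 20 measured flowering activators and panicle MADS genes, 3 rose and 17 did not pass between the last and the third, where, with 1 probe set per gene, 0.687% of the 17905 genes changed, 0.274% higher and 0.413% lower. The list's median difference was 0.08 and that over all genes -0.02. The same list is the one chosen to show panicle tissue in the cut pieces. Its log2 summed level was 14.14 and 14.25 in the last joint, 13.55 and 13.62 in the second and 13.05 and 12.59 in the third, with 12.85 and 12.38 in the leaf piece. Whether panicle tissue took part was not tested.

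Of the 8 vegetative MADS genes, 2 were lower in the last joint than in the third, where 0.413% of all genes were lower. The list's median difference was 0.01, with 4 genes above 0 and 4 below. MADS50, a SOC1-like promoter of flowering, was at 7.65 and 7.28 in the last joint, 8.46 and 7.79 in the second and 8.74 and 9.31 in the third, and fell in the last against the third joint by 1.56 ± 0.29 (adjusted p = 0.0249). MADS47, a repressor of brassinosteroid responses, was at 8.18 and 7.32 in the last joint, 8.66 and 8.64 in the second and 9.03 and 8.73 in the third, and fell by 1.13 ± 0.21 (adjusted p = 0.0257). Without replicate 2 of the third joint these differences were -1.27 (adjusted p = 0.269) and -1.29 (adjusted p = 0.0884). For both genes the second joint lay between the others, as it did for the 3 flowering genes.

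**Figure D2:**
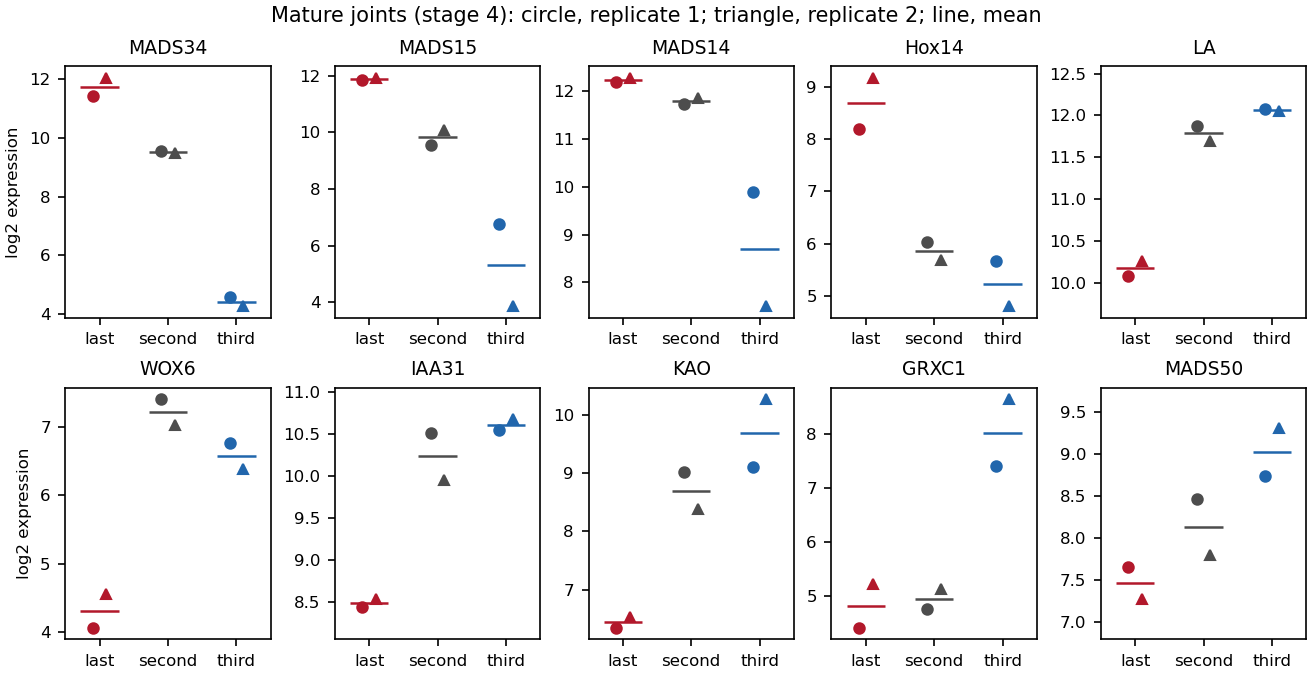
Log2 expression of 10 genes in joints of the 3 leaf positions at stage 4, with circles for replicate 1, triangles for replicate 2 and lines for means; the y axis differs between panels. MADS34 and MADS15 step down by position from 11.74 and 11.89 in the last joint to 4.42 and 5.31 in the third, while LA, WOX6 and IAA31 are lower in the last joint than in both others.

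Several genes of gravity sensing, growth and hormones were lower in the last joint than in the third, and most of them were also lower than in the second. LA (LOC4350543), the LAZY1 gene of shoot gravitropism and tiller angle, had 10.09 and 10.27 in the last joint, 11.88 and 11.70 in the second and 12.08 and 12.05 in the third. The last joint was lower than the third by 1.89 ± 0.25 on the log2 scale (adjusted p = 0.00297) and lower than the second by 1.61 ± 0.25 (adjusted p = 0.00827), while the second and the third differed by 0.28 ± 0.25. The leaf piece averaged 6.19, below all 6 joint arrays.

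WOX6 (LOC4332705), a WUSCHEL-related homeobox gene, had 4.06 and 4.56 in the last joint, 7.41 and 7.03 in the second and 6.76 and 6.38 in the third. It fell in the last joint by 2.26 ± 0.32 against the third (adjusted p = 0.00472) and by 2.91 ± 0.32 against the second (adjusted p = 0.000518). In the last joint its level was close to that of the leaf piece, 3.89. A second, dimmer probe set of WOX6 differed by 0.13 and -0.08 in these comparisons and did not pass, so the result holds for 1 of its 2 probe sets.

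Auxin signalling genes included 2 that fell in the last joint. IAA31, an Aux/IAA repressor, had 8.44 and 8.53 in the last joint, 10.52 and 9.96 in the second and 10.55 and 10.68 in the third, and fell by 2.13 ± 0.31 against the third (adjusted p = 0.00524) and by 1.75 ± 0.31 against the second (adjusted p = 0.0171). ARF7, an auxin response factor, had 8.89 and 8.84 in the last joint, 9.17 and 9.26 in the second and 9.82 and 10.09 in the third, and fell by 1.08 ± 0.15 against the third (adjusted p = 0.00472). A second, dim probe set of IAA31 differed by -0.00014 between the last and the third joint and by -0.09 between the last and the second. It did not pass in either comparison. The other 41 of 43 Aux/IAA and auxin response factor genes did not pass between the last and the third, where 0.687% of all genes changed. The list's median was -0.14, with 30 of 43 below 0, against a median of -0.02 and 9308 of 17905 below 0 over all genes. Without replicate 2 of the third joint the medians were -0.08 for the list and 0.04 for all genes.

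One expansin and one aquaporin were lower in the last joint than in both others. EXPA6, an expansin that loosens the cell wall, had 7.68 and 7.81 in the last joint, 9.49 and 9.76 in the second and 9.64 and 9.40 in the third, lower in the last joint by 1.78 ± 0.31 against the third (adjusted p = 0.0156) and by 1.88 ± 0.31 against the second (adjusted p = 0.0107). It was the only one of 29 expansins to change in either comparison, where 0.687% and 0.877% of all genes changed. EXPA1, by contrast, ranged from 10.29 to 11.96 within the last joint alone, with 11.40 and 10.98 in the second and 11.15 and 11.18 in the third. PIP2;5, a plasma membrane aquaporin, had 4.42 and 5.99 in the last joint, 8.84 and 8.89 in the second and 7.88 and 7.89 in the third. It fell by 2.68 ± 0.56 against the third (adjusted p = 0.0465) and by 3.66 ± 0.56 against the second (adjusted p = 0.00692).

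Of 12 gibberellin genes, 1 changed between the last and the third joint, where 0.687% of all genes changed. KAO, ent-kaurenoic acid oxidase, which makes a precursor of active gibberellins, had 6.35 and 6.54 in the last joint, 9.01 and 8.38 in the second and 9.10 and 10.27 in the third. The last joint was lower than the third by 3.24 ± 0.50 (adjusted p = 0.00867). Against the second joint the difference of -2.25 ± 0.50 did not pass (adjusted p = 0.0603). The other 11 gibberellin genes did not pass, among them SLR1, the DELLA repressor, with 9.14 and 9.42 in the last joint, 9.09 and 9.48 in the second and 10.20 and 10.30 in the third (the last minus the third -0.97 ± 0.24, adjusted p = 0.0934).

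Hox14, an HD-Zip homeobox gene, was the exception among these genes in being higher in the last joint. It had 8.20 and 9.18 there, 6.03 and 5.68 in the second joint and 5.66 and 4.80 in the third. The last joint exceeded the third by 3.46 ± 0.60 (adjusted p = 0.0151) and the second by 2.83 ± 0.60 (adjusted p = 0.0475). It was 1 of 32 HD-Zip and YABBY genes, and the other 31 did not pass in either comparison. Of all genes, 0.687% and 0.877% changed in these comparisons.

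Of the genes in the preceding paragraphs, LA and WOX6 remained called between the last and the third without replicate 2 of the third joint (differences of -1.90 and -2.45, adjusted p = 0.039 and 0.0321). Those of IAA31, ARF7, EXPA6, PIP2;5, KAO and Hox14 kept their direction and lost the call (adjusted p from 0.0622 for IAA31 to 0.246 for PIP2;5). Of all 22 called genes named for the last against the third, 17 lost their call without that array and MADS34, MADS15, GRXC1, WOX6 and LA kept it. With each of the 4 arrays left out in turn, MADS34, MADS15, GRXC1 and LA were the 4 of 22 that stayed called in every fit.

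**Figure D3:**
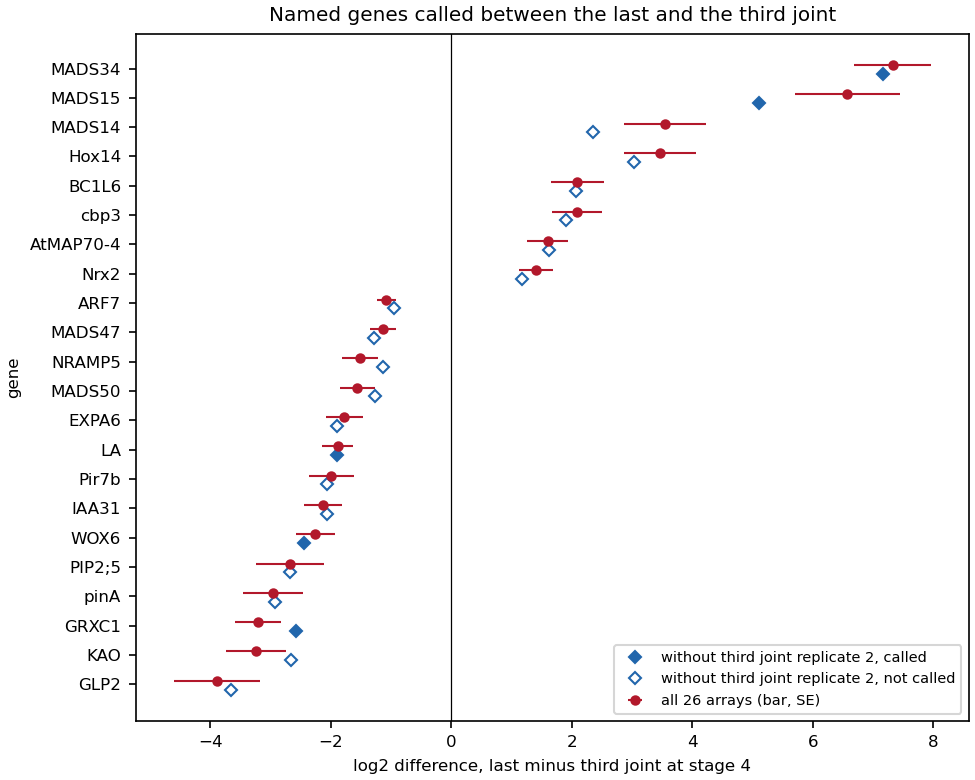
Log2 difference of the last minus the third joint for the 22 named genes called, with red points and SE bars from all 26 arrays and blue diamonds from the fit without replicate 2 of the third joint, filled where still called. All 22 keep their sign, and 5 diamonds are filled, among them MADS34 at 7.17 and LA at -1.90.

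The named genes that were lower in the second joint than in the last included genes of light response, of the chloroplast and of the daily clock. GLT2, HIRL1 and KSL5 were also among them. With 1 of the 4 arrays left out, their differences ran from 4.56 to 4.65, from 1.53 to 2.04 and from 1.11 to 2.32. GLT2 and HIRL1 lost their call in all 4 of these fits, and KSL5 in 3 of 4. Another probe set of HIRL1 differed by 3.09 and changed, while those with differences of 1.16 and 1.41 did not pass. PIP2;7 (LOC4347729), a plasma membrane aquaporin, had 11.24 and 11.11 in the last joint, 5.88 and 7.32 in the second and 10.03 and 9.48 in the third. The last joint exceeded the second by 4.57 ± 0.47 (adjusted p = 0.000245), a ratio of 23.8, and the second was lower than the third by 3.15 ± 0.47 (adjusted p = 0.00974). Of the 25 aquaporins, PIP2;7 and PIP2;5 changed between the last and the second, in opposite directions, where 0.877% of all genes changed.

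LIR1 (LOC4326442), a light-induced chloroplast protein gene, had 13.69 and 13.61 in the last joint, 10.09 and 10.71 in the second and 12.39 and 12.99 in the third. The last joint was higher than the second by 3.25 ± 0.41 (adjusted p = 0.00119). The second was lower than the third by 2.29 ± 0.41 (adjusted p = 0.0268). PIP2;7, LIR1 and WOX6 were the 3 of 19 named genes called between the last and the second that stayed called with any of the 4 arrays left out. Of the other 16, 11 lost their call in all 4 fits, GI, IAA31, EXPA6, Hox14, LA, CAT-A, MRS2-A and AMT1 among them.

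PSAH and LP02, both of photosynthesis, were also lowest in the second joint. PSAH, a photosystem I subunit, had 11.40 and 11.83 in the last joint, 10.07 and 10.01 in the second and 11.34 and 11.10 in the third (the last minus the second 1.58 ± 0.21, adjusted p = 0.00227; the second minus the third -1.18 ± 0.21, adjusted p = 0.0286). LP02, which encodes a protein of the oxygen-evolving complex of photosystem II, had 12.42 and 12.78 in the last joint, 11.24 and 10.96 in the second and 12.35 and 12.35 in the third (the last minus the second 1.50 ± 0.17, adjusted p = 0.000803; the second minus the third -1.24 ± 0.17, adjusted p = 0.00747). For both genes the arrays of the second joint lay below all others, and those of the third lay just below those of the last. PPT2, a plastid phosphoenolpyruvate/phosphate translocator, was higher in the last than in the second joint by 1.60 ± 0.19 (adjusted p = 0.000948), CAT-A, a catalase, by 2.79 ± 0.57 (adjusted p = 0.041) and RIBA3, of riboflavin synthesis, by 1.15 ± 0.24 (adjusted p = 0.044).

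Markers of green leaf were set beside these genes. The log2 summed level of 5 light-harvesting and photosystem genes was 13.76 and 14.40 in the last joint, 12.90 and 11.58 in the second and 12.90 and 13.60 in the third, against 15.11 and 15.17 in the leaf piece. Replicate 1 of the second and of the third joint shared a value of 12.90, and replicate 2 of these joints was at 11.58 and 13.60. LIR1 was at 10.09 and 10.71 in the second joint and at 12.39 and 12.99 in the third. Of these 5 genes, 4 were higher in the last than in the second joint, and PSAH was the 1 that changed, where 0.877% of all genes changed. PIP2;7 at 12.86, LIR1 at 14.10, PSAH at 12.93 and LP02 at 13.71 were also higher in the leaf piece than in any joint of stage 4. The part of green tissue in these differences was not tested.

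One gene of the daily clock passed between the last and the second joint. GI, GIGANTEA, a clock gene that peaks late in the day, had 13.27 and 13.08 in the last joint, 11.49 and 11.53 in the second and 12.67 and 12.75 in the third, and was higher in the last than in the second joint by 1.67 ± 0.33 (adjusted p = 0.0358). The other 5 of 6 measured clock genes did not pass, in a comparison where 0.877% of all genes changed. The pseudo-response regulators, which act as clock repressors through the day and evening, had the same sign without passing. PRR1 was at 10.39 and 10.77 in the last joint, 8.53 and 8.86 in the second and 10.05 and 10.65 in the third (the last minus the second 1.88 ± 0.44, adjusted p = 0.0746). PRR37, PRR73 and PRR95 had differences of 1.55, 1.32 and 3.75 (adjusted p = 0.175, 0.355 and 0.0577). CCA1, a morning clock gene, had the opposite sign, with 7.23 and 7.17 in the last joint, 10.07 and 8.24 in the second and 7.07 and 7.24 in the third (the last minus the second -1.96 ± 0.55, adjusted p = 0.168). The clock list had a median difference of 1.61 between the last and the second, against -0.02 over all genes, and of -1.30 between the second and the third.

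Several genes that were low or high in the second joint were also read by day after sowing, across stages. Besides the second joint of stage 4, the last joint of stage 2 and the third joint of stage 5 were taken at 60 days, and in these 3 groups GI lay between 11.37 and 11.60 on all 6 arrays. In the 2 groups of 65 days, the last joint of stage 4 and the second joint of stage 5, GI lay between 12.96 and 13.27. CCA1 lay between 8.13 and 10.07 on the arrays of 60 days and between 6.65 and 7.37 on those of 65 days. LIR1 lay between 9.73 and 11.14 at 60 days and between 13.49 and 13.69 at 65 days, and PIP2;7 between 4.37 and 7.65 and between 10.56 and 11.24. For PRR1, PRR37, PRR73, PRR95 and CAT-A the arrays of 60 days also lay below those of 65 days. At 55 days the third joint of stage 4 and the second joint of stage 2 were taken. Their 4 arrays spread widely for LIR1, from 9.78 to 12.99, and for PIP2;7, from 4.30 to 10.03. For GI these arrays ran from 12.03 to 12.75 and for CCA1 from 6.96 to 7.24. PSAH and LP02 overlapped between these days, with 9.93 to 11.30 at 60 days and 10.71 to 11.83 at 65 days for PSAH, and 10.96 to 12.77 at 60 days and 12.07 to 12.78 at 65 days for LP02. The hour of cutting is not given in the labels used here, and its part in these levels was not tested.

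**Figure D4:**
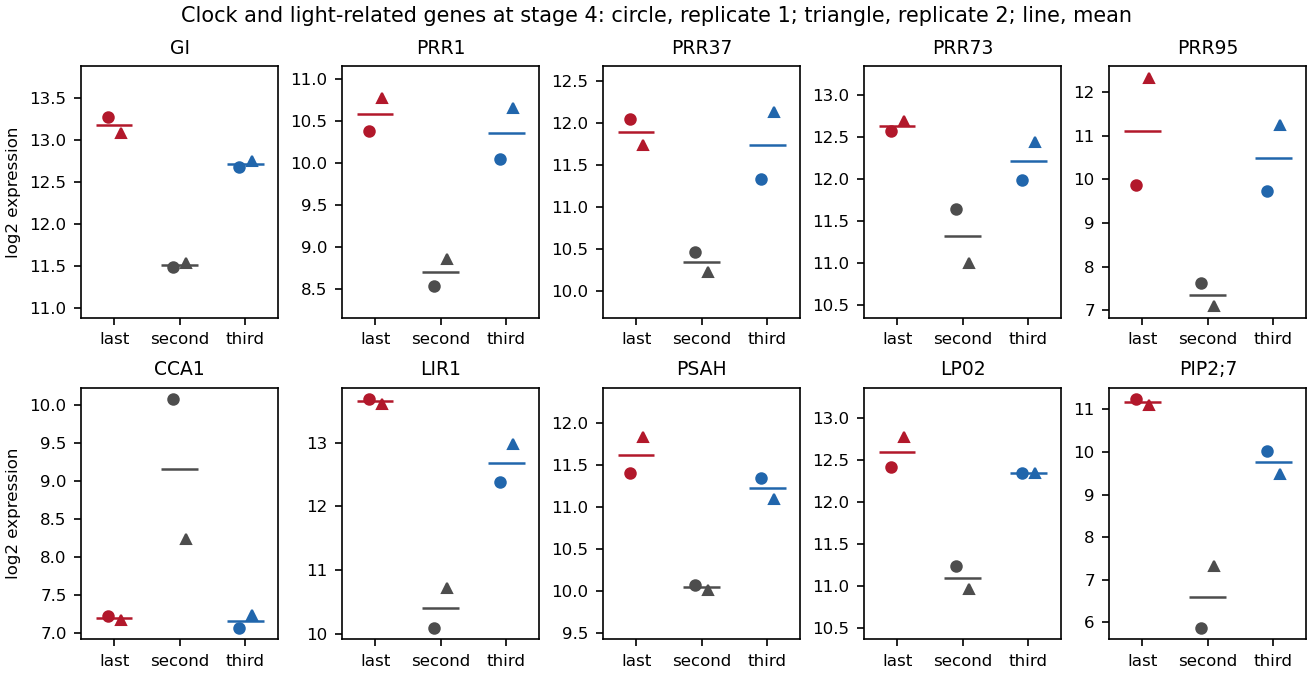
Log2 expression of 6 clock genes, LIR1, PSAH, LP02 and the aquaporin PIP2;7 in joints of the 3 leaf positions at stage 4. Circles stand for replicate 1, triangles for replicate 2 and lines for means, and the y axis differs between panels. The second joint is lowest for GI, the 4 pseudo-response regulators, LIR1, PSAH, LP02 and PIP2;7 and highest for CCA1, whose replicates there were at 10.07 and 8.24.

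Other genes were higher in the second joint than in the last. MRS2-A, a magnesium transporter, had 7.31 and 7.21 in the last joint, 9.64 and 9.28 in the second and 8.26 and 8.03 in the third (the last minus the second -2.20 ± 0.37, adjusted p = 0.0132). AMT1, an ammonium transporter, had 8.97 and 8.52 in the last joint, 10.67 and 10.41 in the second and 9.12 and 8.99 in the third (the last minus the second -1.80 ± 0.33, adjusted p = 0.0232). GLU8, an endoglucanase of the cell wall, had 3.96 and 4.24 in the last joint, 5.57 and 6.21 in the second and 4.39 and 4.11 in the third (the last minus the second -1.79 ± 0.30, adjusted p = 0.0113; the second minus the third 1.64 ± 0.30, adjusted p = 0.028). In all 3 genes both arrays of the second joint lay above the 4 arrays of the other joints. Rac2, a small GTPase, differed between the last and the second by -2.25 ± 0.47 (adjusted p = 0.0443), and HSP81-1, a heat shock protein of the HSP90 class, by -1.32 ± 0.27 (adjusted p = 0.0425). A second probe set of HSP81-1 differed by 0.26 in the other direction and did not pass. Second, dim probe sets of AMT1 and Rac2 differed by -0.06 and -0.27 and did not pass either.

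Several single genes set the third joint apart from one or both of the others. GRXC1, a glutaredoxin, had 4.42 and 5.23 in the last joint, 4.75 and 5.13 in the second and 7.40 and 8.65 in the third. It was lower than the third joint by 3.21 ± 0.38 in the last (adjusted p = 0.00124) and by 3.09 ± 0.38 in the second (adjusted p = 0.00272). The leaf piece averaged 8.70, near the higher array of the third joint. Pir7b, an esterase gene known for its induction by pathogens, had 5.01 and 5.11 in the last joint, 5.06 and 4.36 in the second and 7.13 and 6.98 in the third, and was lower than the third joint by 1.99 ± 0.38 in the last (adjusted p = 0.0272) and by 2.34 ± 0.38 in the second (adjusted p = 0.0152).

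The gene named pinA, at 8.93 and 10.01 in the last joint, 10.24 and 9.30 in the second and 12.39 and 12.47 in the third, was lower than the third joint by 2.96 ± 0.50 in the last (adjusted p = 0.0141) and by 2.66 ± 0.50 in the second (adjusted p = 0.0331). GLP2, a germin-like protein, was graded, with 4.90 and 5.11 in the last joint, 7.25 and 6.24 in the second and 8.66 and 9.13 in the third, and fell in the last joint by 3.89 ± 0.72 against the third (adjusted p = 0.023). A second probe set of GLP2 fell by 3.41 in the same comparison. NRAMP5, a manganese and cadmium transporter, was lower in the last than in the third joint by 1.51 ± 0.30 (adjusted p = 0.0323). LOGL10, of the LOG family that activates cytokinins, was lower in the second than in the third by 2.64 ± 0.52 (adjusted p = 0.0419).

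Among genes with less transcript in the third joint, BC1L6, a COBRA-like gene of a family that organises cellulose, had 11.45 and 10.43 in the last joint, 11.40 and 11.40 in the second and 8.88 and 8.83 in the third. It was higher than the third joint by 2.09 ± 0.44 in the last (adjusted p = 0.0467) and by 2.55 ± 0.44 in the second (adjusted p = 0.0237). SS1, a starch synthase, had 8.87 and 8.64 in the last joint, 9.37 and 9.20 in the second and 7.59 and 7.66 in the third, and was higher in the second than in the third by 1.66 ± 0.27 (adjusted p = 0.0172). PIN5a, of the PIN family of auxin transporters, was higher in the second than in the third by 2.04 ± 0.36 (adjusted p = 0.0257) and ALN, an allantoinase, by 1.10 ± 0.21 (adjusted p = 0.0333). BC1L6 was the 1 changed gene of 8 in the secondary wall list between the last and the third, where 0.687% of all genes changed. The list's median difference there was 0.70, with all 8 genes above 0, against 8597 of 17905 over all genes. The list's median was 0.38 without replicate 2 of the third joint. The log2 summed level of this list was 13.89 and 14.17 in the last joint, 14.11 and 14.11 in the second and 13.84 and 13.02 in the third, against 12.40 and 12.24 in the leaf piece. The lowest joint value came from the third joint's outlying array, and the part of vessels and fibres in the cut pieces was not tested.

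The calls against the third joint leaned on single arrays. All 17 named genes called between the second and the third lost their call without replicate 2 of the third joint, all 17 also without replicate 1 of the second joint, and 15 of 17 without its replicate 2. Without replicate 2 of the third joint GRXC1 alone of the genes in the preceding 3 paragraphs stayed called between the last and the third (difference of -2.58, adjusted p = 0.0247). For the second against the third GRXC1 then differed by -2.46, a smaller difference than with all arrays. BC1L6 then differed by 2.52 and SS1 by 1.69, values close to those with all arrays.

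Brassinosteroid genes, which act in joint bending, did not pass between positions. None of the 17 measured changed in any of the 3 comparisons. With 0.687%, 0.877% and 0.402% of all genes changed in the last against the third, the last against the second and the second against the third joint, a count of 0 in a list of this size is near the background. BRI1, the brassinosteroid receptor, had 11.11 and 10.32 in the last joint, 11.26 and 11.48 in the second and 10.95 and 11.56 in the third. BU1, a helix-loop-helix activator of joint bending, had 8.12 and 7.98 in the last joint, 7.53 and 8.33 in the second and 7.16 and 6.47 in the third, and its difference of 1.24 ± 0.52 between the last and the third did not pass (adjusted p = 0.423). D11 of brassinosteroid synthesis, the kinase GSK2, the factors BZR1 and LIC, the antagonist IBH1 and the G protein subunit RGA1 did not pass either, nor did GH3-1 of auxin conjugation or the SPL factor IPA1.

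None of the 60 cyclin, cyclin-dependent kinase and kinesin genes changed, nor any of the 38 jasmonate, 11 ethylene, 10 growth-regulating factor, 13 SPL and 6 KNOX genes. These counts too are near the background. The medians of these lists lay between -0.16 and 0.20 between the last and the third joint. SGR and NYC1, of chlorophyll breakdown, did not pass, with NYC1 at 11.63 and 11.96 in the last joint, 10.62 and 10.82 in the second and 11.21 and 10.25 in the third. Of the 37 gene lists, 19 held at least 1 changed gene in some comparison and 18 held none. A gene that did not pass with 2 arrays a group is not shown to have equal levels.

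The position differences of stage 4 were also set against the mean of the same differences at stages 2, 5 and 6. For the last against the third joint 413 probe sets (0.721%) differed from that mean, for the last against the second 318 (0.555%) and for the second against the third 270 (0.472%), by limma's test of the difference at the same limits. The flowering genes were not among them. MADS34 averaged 10.62, 11.74, 11.10 and 11.18 in the last joint at stages 2, 4, 5 and 6, 5.04, 9.53, 8.46 and 9.67 in the second and 4.12, 4.42, 5.90 and 6.16 in the third. The last joint was thus highest at every stage. The difference of the last and the third at stage 4 exceeded the mean of the other stages by 1.75, which did not pass (adjusted p = 0.323). The last joint also had the highest mean at every stage for MADS15 and MADS14. For these genes the second joint was not above the third throughout. At stage 2 the third averaged 7.66 against 6.01 in the second for MADS15, and 9.50 against 9.04 for MADS14. LA was lowest in the last joint at stages 4, 5 and 6, at 10.18, 10.94 and 9.70, and its excess of -1.12 did not pass (adjusted p = 0.0833).

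WOX6 and IAA31 differed. WOX6 averaged 6.98, 4.31, 4.79 and 5.00 in the last joint at stages 2, 4, 5 and 6, 4.86, 7.22, 4.53 and 4.74 in the second and 4.85, 6.57, 5.14 and 4.37 in the third. The last joint was the highest at stage 2 and the lowest at stage 4, and its stage 4 difference from the second joint exceeded the mean of the other stages by -3.79 (adjusted p = 0.000186) and that from the third by -3.07 (adjusted p = 0.00257). IAA31 exceeded the mean of the other stages by -2.36 for the last against the third (adjusted p = 0.00877) and by -2.40 for the last against the second (adjusted p = 0.00532). PIP2;7 averaged 4.63, 11.18, 9.60 and 9.12 in the last joint, 4.71, 6.60, 10.58 and 7.61 in the second and 4.78, 9.75, 7.65 and 9.69 in the third, so that the second joint was the lowest at stages 4 and 6 and the highest at stage 5.

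**Figure D5:**
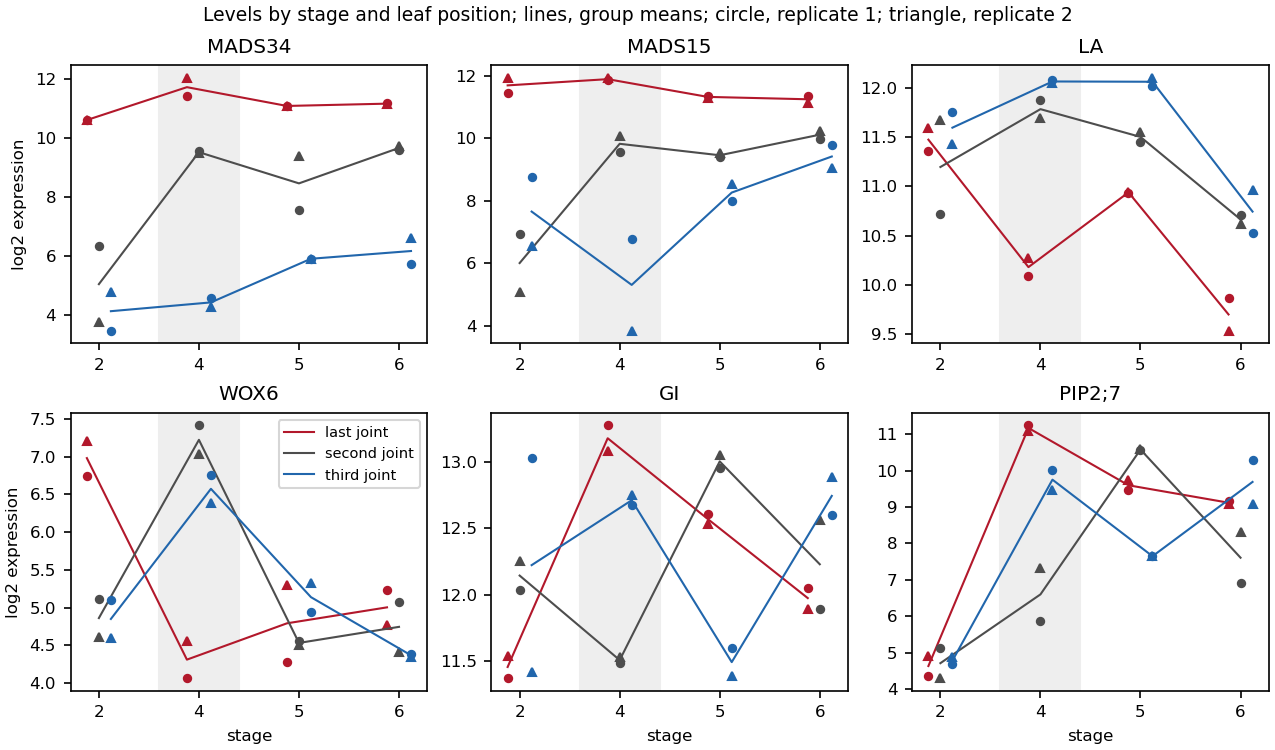
Log2 expression of 6 genes at stages 2, 4, 5 and 6 in joints of the 3 leaf positions, with circles for replicate 1, triangles for replicate 2, lines through group means and stage 4 shaded; the y axis differs between panels. MADS34 is highest in the last joint at every stage, WOX6 in the last joint is at 6.98 at stage 2 and 4.31 at stage 4, and the lowest joint for GI is the last at stage 2, the second at stage 4 and the third at stage 5.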

How the data were processed

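Total RNA of hand-cut joints was labelled with biotin and hybridised to Affymetrix rice genome arrays on 1 array per sample, per the labels' protocols. The deposited table holds 1 log2 value for each probe set and array, made by the authors with RMA according to the submitters' processing notes. RMA's version and settings are not stated in the sources used here. Values run from 2.27 to 14.8, none is missing, and they were not scaled again. Of 57381 probe sets, 123 controls were left out. By the platform annotation and the RefSeq gene table, 22436 of the 57258 tested match 1 gene, 95 several and 34727 none, which are unnamed here. These represent 17905 genes, of which 2432 have a descriptive name, and the brightest probe set on average stands for a gene.

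A linear model with 13 group means and no block was fitted to all 26 arrays with limma 3.58.1 in R 4.3.3, leaving 13 residual degrees of freedom. Position differences at stage 4, their F-test and their difference from the mean of stages 2, 5 and 6 were tested two-sided, with Benjamini-Hochberg adjustment over all probe sets tested. The script was tested on simulated data. Genes named are, per comparison, up to 8 called per direction with no overlap between arrays. To these come at most 2 called members of each of 37 lists, those with the largest change. Then come 26 genes of leaf angle, hormones, flowering and senescence, of which 20 were matched. D2, DLT, ARF19, LC2 and ILI1 were not matched. LPA1 was left out because its only match was the symbol of another gene. None of these is analysed here. The F-test added the 10 smallest adjusted p and each test between stages up to 5 genes per direction. PRR1, PRR37, PRR73 and CCA1 fall outside this rule, and they and the values by day were chosen after they were seen. The members and lists were chosen with earlier results of these data known. Alternatives were the 6 arrays alone, the replicate number as a block, a further quantile normalisation, a filter on dim probe sets, 1 probe set per gene, an intensity trend, the Gapdh 3′ minus 5′ value as covariate, limma's treat, no fold limit and leaving out each array. No genome was supplied, so no coordinates or sequences are given.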

Additional observations from a re-analysis of the deposited data

Results flagged for a closer look

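The results here are those where a position difference at stage 4 departed from the mean of the same difference at stages 2, 5 and 6, by limma's test of that departure at an adjusted p under 0.05 and at least 2-fold. They number 413 probe sets for the last against the third, 318 for the last against the second and 270 for the second against the third. For the last against the second 142 were higher and 176 lower, and 237 and 180 after a further quantile normalisation. Departures are on the log2 scale, and the genes given are the largest with a descriptive name.

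For the last against the third, the departure was 2.86 in KIN14B, a kinesin, 1.75 in CSLH1, a cellulose synthase-like gene, 1.59 in GH3-11, of the GH3 family of acyl-amido synthetases, and 1.10 in GLO3, a glycolate oxidase. It was -4.08 in GLP2, -4.02 in E727A, -3.76 in pinA, -3.68 in GRXC1 and -3.26 in HAK17, a potassium transporter. GLP2, pinA and GRXC1 were also called between these joints at stage 4 alone. HAK17 was not, and its level at stage 4 was 11.09 and 11.83 in the last joint and 12.18 and 12.13 in the third.

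For the last against the second, the departure was 4.46 in PRR95, 4.42 in PIP2;7, 3.73 in CAT-A, 3.08 in LIR1 and 2.68 in MET1-2, a DNA methyltransferase. It was -4.44 in HSFB2C, a heat shock factor, -3.79 in WOX6, -3.40 in MRS2-A, -3.26 in FRO1, named as a ferric reductase, and -3.22 in PIP2;5. PRR95, PIP2;7, CAT-A and LIR1 are among the genes with a lower mean in the second joint of stage 4, taken at 60 days, than in the last.

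For the second against the third, the departure was 3.15 in KIN14B, 3.08 in EXPB2, a beta-expansin, 2.57 in Rac2, 2.56 in rcaA1, a rubisco activase, and 2.53 in Trx03, a thioredoxin. It was -3.89 in Cht1 and -3.59 in Cht2, both chitinases, -3.41 in PIP2;7, -3.26 in pinA and -2.45 in AMT2-1, an ammonium transporter. With each of the 16 arrays of a test left out in turn, GRXC1 was the 1 of 9 genes that stayed called in every fit for the last against the third, PIP2;7, WOX6 and MRS2-A were 3 of 10 for the last against the second, and 0 of 10 did for the second against the third. KIN14B, GLO3 and E727A lost their call in 13, 14 and 13 of the 16 fits for the last against the third, and PRR95 and FRO1 in 14 and 14 for the last against the second. With the Gapdh 3′ minus 5′ value as covariate, 0 of 9 and 0 of 10 stayed called in the tests with the third joint, and 10 of 10 in the last against the second. Without replicate 2 of the third joint, 92, 380 and 11 probe sets departed in the 3 tests in the order given above.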

How the results depend on the processing

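No value of a named gene turned its direction while called. Counts below are of probe sets for the last against the third, the last against the second, the second against the third and any difference, as 241, 232, 135 and 496 reported, then for the 3 departures from the other stages, as 413, 318 and 270 reported. With the 6 arrays of stage 4 alone they were 101, 40, 19 and 104. With the Gapdh 3′ minus 5′ value as covariate they were 36, 317, 11 and 237, and 4, 511 and 1 for the departures. limma's treat at a 1.2-fold limit gave 111, 90 and 49, and 113, 139 and 59. With 1 probe set per gene, the departures of the last against the third and of the second against the third numbered 101 and 92. Without the third joint of stage 4 replicate 2 and the second joint of stage 5 replicate 1, a setting chosen after seeing the data, the counts were 91, 375 and 25, with 349 for any difference, and 241, 500 and 7. Leaving out each array in turn gave 47 to 689, 31 to 116, 4 to 1101 and 126 to 1345, and 20 to 1015, 25 to 558 and 11 to 1086 for the departures. The lowest departures came without the last joint of stage 4 replicate 1 (20), the second joint of stage 4 replicate 1 (25) and the third joint of stage 4 replicate 2 (11). The cause of these shifts was not tested. Of the named genes called, 6 of 22, 6 of 19 and 1 of 17 stayed called with the 6 arrays alone, and 4, 19 and 2 with the Gapdh covariate. The filter on dim probe sets took 2 of 22, 6 of 19 and 1 of 17 out of the test, and those left stayed called. Quantile normalisation, an intensity trend and no fold limit changed the call of at most 1 named gene in each of the 3 position comparisons.

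The labels do not say that replicate numbers pair the joints, and the correlations of the replicate differences across probe sets were 0.03 between the last and the second, -0.31 between the last and the third and 0.08 between the second and the third. The replicate number as a block gave 321, 313, 276 and 778, and 1 of 22 named genes lost its call between the last and the third joint.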
